A study of Mus musculus with 2 samples.

Results

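The transcription factors that give macrophages their identity were followed in macrophages of the sciatic nerve (SN). The 8 genes, *Spi1*, *Maf*, *Irf8*, *Mef2a*, *Mef2c*, *Runx1*, *Cebpb* and *Zeb2*, were listed by name, and all 8 were found among the 54838 genes of the count matrices. Cells were barcodes with at least 500 UMIs (unique molecular identifiers, each counting 1 captured RNA molecule) and 200 genes, which gave 1045 YFP− and 4053 YFP+ cells. The mice carried Flt3-Cre and the LSL-YFP fl/fl reporter, so that a cell is YFP+ if it or one of its ancestors made Cre under *Flt3* control, as multipotent progenitors of the bone marrow do, and YFP− if the reporter stayed silent. CD64+ CD45int macrophages came from the pooled nerves of 19 male mice aged 10 to 12 weeks and were sorted by YFP, and each sort gave 1 library. Both groups therefore come from the same pool of mice, the reporter is a record of past Cre activity and not of origin itself, and no replicate exists with which a difference between YFP− and YFP+ could be tested. All intervals given are 95% intervals that cover counting error only, and CPM is a gene's UMIs over all UMIs in the cells of a library, scaled to 1000000.

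These factors work together in macrophages. PU.1, the product of *Spi1*, binds most macrophage enhancers and opens them with partners such as C/EBPβ (*Cebpb*), IRF8 and RUNX1, while c-Maf, the MEF2 proteins and ZEB2 shape what a macrophage becomes in its tissue. c-Maf is known for resident programs of endocytic receptors, MEF2C for restraint of inflammatory responses in microglia, IRF8 for interferon-responsive and antigen-presenting genes, and ZEB2 for holding macrophages of several tissues in their identity.

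The defining markers of macrophages were present. All 12 listed macrophage markers were detected in both libraries, with summed levels of 31653 CPM in YFP− cells and 32349 CPM in YFP+ cells. Of the markers of other blood cells, 5 of 6 for T cells, 3 of 5 for B cells and 4 of 5 for neutrophils were at 0 UMIs in both libraries, *Cd3e*, *Cd79a* and *S100a8* among them. In the YFP− and the YFP+ library the T cell markers summed to 0.414 and 0.889 CPM, the B cell markers to 60.4 and 57.8 CPM, of which *Cd79b* made up 57.9 and 53.8 CPM, and the neutrophil markers to 16.5 and 11.7 CPM, all of it *Csf3r*. The dendritic cell markers summed to 199 and 179 CPM, with *Siglech* at 127 and 114 CPM and *Cd209a* at 58.7 and 47.7 CPM. The monocyte markers summed to 18.6 and 29.3 CPM and the mast cell markers to 0.414 and 0 CPM. RNA of other nerve cells was present at a lower level: the 8 Schwann cell markers summed to 748 CPM in YFP− cells and 689.7 CPM in YFP+ cells. The 7 markers of mural cells summed to 14.1 and 146 CPM. Those of fibroblasts summed to 71.5 and 171 CPM and those of endothelial cells to 92.6 and 62.5 CPM. *Egfl7* made up 82.3 and 52.8 CPM of the endothelial sums. It was also among the leading genes of a cluster of 1027 cells in which the macrophage markers summed to 33194 CPM. The endothelial sums thus do not by themselves show endothelial RNA. The YFP− cells were deeper, with a median of 2233 UMIs and 1050 genes a cell against 1484 UMIs and 774 genes, and the UMIs in cells summed to 2418044 and 6747554. The libraries shared 7 cell barcodes, against 5.74 that the sizes of the libraries give.

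On the GRCm38 genome, *Spi1* lies at 91082390 to 91115756 on the plus strand of chromosome 2, *Cebpb* at 167688915 to 167690418 on the plus strand and *Zeb2* at 44983632 to 45117395 on the minus strand of the same chromosome. *Maf* (115682942 to 115707794, minus strand) and *Irf8* (120736358 to 120756694, plus strand) are on chromosome 8, *Mef2a* (67231163 to 67372858, minus strand) on chromosome 7, *Mef2c* (83504034 to 83667080, plus strand) on chromosome 13 and *Runx1* (92601466 to 92826149, minus strand) on chromosome 16. *Cebpb* is the shortest of them, a gene of 1504 bases, and *Runx1* the longest, at 224684 bases. *Zeb2* overlaps *Zeb2os* on the other strand, which held 1175 UMIs in cells against 6525 of *Zeb2*, and *Cebpb* overlaps *Tmem189*, which held 350 against 4155. On its own strand *Mef2a* overlaps the predicted genes *Gm44667* and *Gm44668*, which held 142 and 83 UMIs against 1843. Whether counting used strand is not given in the sources used here, so the levels of *Zeb2* and *Cebpb* are uncertain to that extent. Strand cannot part *Mef2a* from the genes it overlaps on its own strand, so its level is uncertain with either setting.

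Promoters are shown for *Cebpb*, which was higher in cells rich in early-response RNA in both libraries, and for *Irf8*, whose ratio along the MHC class II genes passed 1.5-fold in YFP− cells alone. Both are the 250 bases before the start of the gene in RefSeq's annotation (GRCm38.p6), written 5′ to 3′ on the strand of the gene. In the *Cebpb* promoter (chr2:167688665-167688914, plus strand), capitals mark matches to TGACG, the shared part of cAMP response elements, on either strand. In the *Irf8* promoter (chr8:120736108-120736357, plus strand), capitals mark matches to TTCNNNGAA, the pattern of a gamma-activated site, an element of genes that respond to interferon gamma.
Cebpb: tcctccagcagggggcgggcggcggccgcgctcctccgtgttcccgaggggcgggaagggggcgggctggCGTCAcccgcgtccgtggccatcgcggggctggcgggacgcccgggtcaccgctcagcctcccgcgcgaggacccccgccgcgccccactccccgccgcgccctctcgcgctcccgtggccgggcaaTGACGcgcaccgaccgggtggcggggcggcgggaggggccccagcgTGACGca
Irf8: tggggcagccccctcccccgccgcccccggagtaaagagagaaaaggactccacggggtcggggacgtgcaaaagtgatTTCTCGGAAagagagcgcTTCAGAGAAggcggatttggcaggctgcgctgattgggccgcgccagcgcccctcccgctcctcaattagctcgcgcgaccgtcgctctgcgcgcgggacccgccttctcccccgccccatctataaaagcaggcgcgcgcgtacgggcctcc

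The *Cebpb* promoter held 3 matches to TGACG, which begin 180, 53 and 7 bases before the start. At least 1 match is found in 17.8% of 32851 mouse promoter windows of that length, and 3 or more in 0.688%. The *Irf8* promoter held 2 matches to TTCNNNGAA, at 171 and 153 bases before the start, and 7.02% of windows hold at least 1 and 0.317% at least 2. Neither window held the other's pattern, nor any of the other 7 that were searched on both strands, the AP-1 site (TGANTCA, in 6.75% of windows), the ETS core of PU.1 (AGGAAGT, 7.69%), the C/EBP site (TTGCNNAA, 9.56%), the RUNX site (TGTGGT, 14.05%), the ZEB E-box (CACCTG, 17.2%), the MEF2 site (3.20%) and the interferon-stimulated response element (2.98%). RefSeq gives a pair of promoters for *Irf8*, and the one shown is at the start of the gene. The pattern marked in each window is the only searched one that it held, so the low shares are not a test of rarity. Those shares are over all windows, whatever their base content. The *Cebpb* window was 81.6% G or C and the *Irf8* window 67.2%. A match in letters is a description of these windows and does not show that a factor binds there.

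*Cebpb* and *Mef2a* were higher in YFP+ cells and *Maf* was lower, each by a modest ratio. YFP− cells were deeper, and *Mef2a* and *Maf* were lower in the deeper cells of both libraries, as given below. The part of depth in these ratios was not tested, nor was that of the mix of clusters, which differed between the libraries as given below. None of the 8 was past 1.5-fold between YFP+ and YFP− cells, where 7.3% of the 5531 genes with a mean of at least 20 CPM were (1.54% higher in YFP+ and 5.77% higher in YFP−), so a count of 0 among 8 is near that background. The members' median log2 ratio of YFP+ over YFP− was 0.02 and their median absolute ratio 0.05, against −0.00 and 0.15 over all genes tested. The members lay between the 81.7 and 98.1 percentile of level, so most genes tested had fewer UMIs and more counting error. No background of genes of like level was made for these ratios. The interval excluded 0 for 3 members, *Mef2a*, *Cebpb* and *Maf*, and for 25.4% of the genes tested.

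*Spi1* was at 340.4 CPM (317 to 364) in YFP− and 353 CPM (339 to 368) in YFP+ cells, a log2 ratio of 0.05 (−0.06 to 0.17). Its intervals overlapped in the libraries. Among the partners of PU.1, *Irf8* was at 189 CPM (172 to 208) and 184 CPM (174 to 195), a log2 ratio of −0.04 (−0.20 to 0.12). *Runx1*, which is needed to form blood stem cells, was at 126 CPM (112 to 141) and 124 CPM (116 to 133), a log2 ratio of −0.02 (−0.21 to 0.17). The intervals of both overlapped between the libraries. *Cebpb*, which drives acute-phase and inflammatory genes, was at 387 CPM (363 to 413) in YFP− and 477 CPM (461 to 494) in YFP+ cells, a log2 ratio of 0.30 (0.20 to 0.41). Its intervals did not overlap, and its ratio exceeded that of 90.5% of the genes tested.

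*Maf* had the most UMIs of the 8, with 3506 in the YFP− and 8745 in the YFP+ library. It was lower in YFP+ cells, at 1296 CPM (1269 to 1323) against 1449.9 CPM (1402 to 1499), a log2 ratio of −0.16 (−0.22 to −0.11) that lay at the 25.2 percentile of the genes tested. The MEF2 genes encode MADS-box factors that respond to calcium and kinases. *Mef2a* was at 169 CPM (153 to 186) in YFP− and 213 CPM (202 to 224) in YFP+ cells, a log2 ratio of 0.33 (0.17 to 0.49). That was the largest of the 8, above 92.2% of the genes tested. *Mef2c* was at 608 CPM (578 to 640.2) and 618 CPM (599 to 637), a log2 ratio of 0.02 (−0.06 to 0.11). *Zeb2*, a zinc-finger repressor that binds E-boxes, was at 705 CPM (672 to 739) and 714 CPM (694 to 735), a log2 ratio of 0.02 (−0.06 to 0.10). Neither *Mef2c* nor *Zeb2* separated the libraries. UMI counts at the 3′ end are not levels per transcript length, and levels were not compared between genes.

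**Figure D1:**
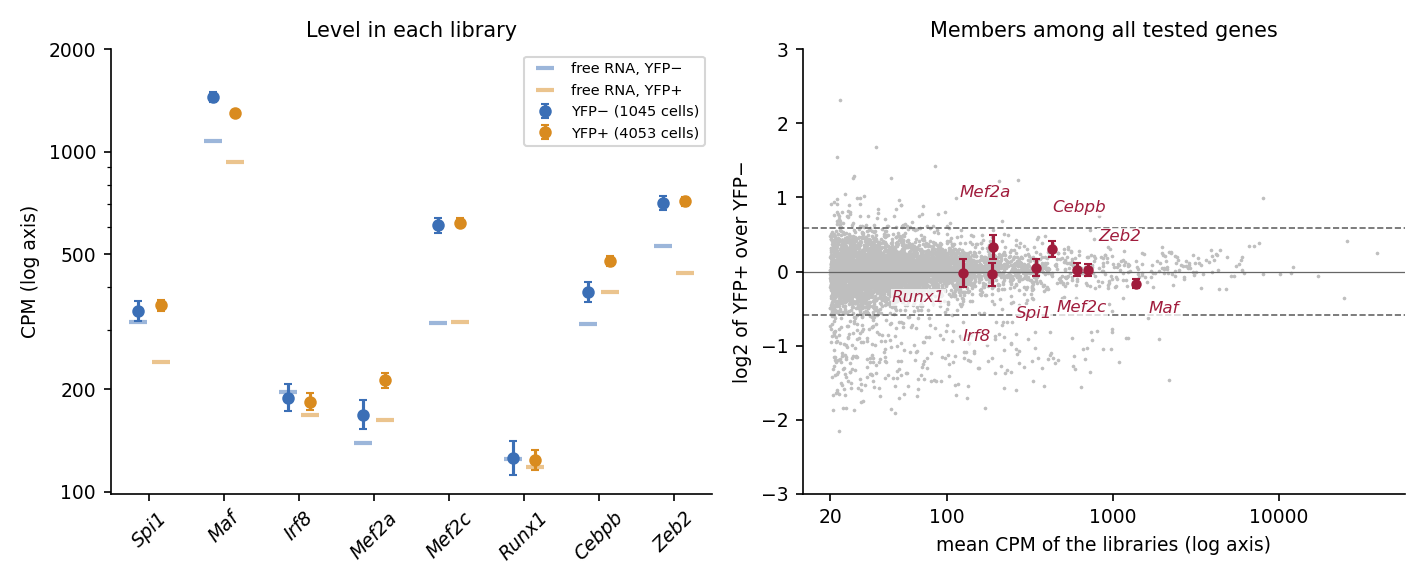
Left, CPM (log axis) of each factor in YFP− (blue) and YFP+ (orange) cells with 95% Poisson intervals, and short bars for its level in free RNA; right, log2 ratio of YFP+ over YFP− against mean CPM (log axis) for all genes with a mean of at least 20 CPM (grey) and the 8 factors (red, with 95% intervals). All 8 factors lie inside the dashed lines at 1.5-fold, and *Mef2a* and *Cebpb* stand highest.

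*Cebpb*, *Mef2a* and *Maf* were also compared between the libraries within classes of cells. When the cells of each library were divided into 4 classes of equal size by their UMIs of 12 early-response genes (*Fos*, *Jun*, *Egr1* and others, which many stimuli switch on quickly, tissue handling among them), *Cebpb* was higher in YFP+ cells in each class. The log2 ratio was 0.34 (0.09 to 0.59) in the lowest class, 0.48 (0.23 to 0.74) and 0.33 (0.11 to 0.56) in the middle ones and 0.17 (0.00 to 0.34) in the highest. *Mef2a* was higher in YFP+ cells in the 4 classes too, by a log2 ratio of 0.25 (−0.07 to 0.59), 0.53 (0.20 to 0.87), 0.41 (0.09 to 0.73) and 0.16 (−0.15 to 0.47), with intervals that hold 0 in the lowest and the highest. The classes were cut within each library and do not hold equal amounts of that RNA: the list summed to 5616 CPM in the third class of YFP− and 6438 CPM in that of YFP+ cells, and to 18444 and 19703 CPM in the highest. In classes by monocyte-like, MHC class II, scavenger and cytokine genes the ratios of *Cebpb* lay between 0.09 and 0.52. Their intervals held 0 in the third class by MHC class II genes (0.09, −0.09 to 0.28), the lowest and highest by scavenger genes (0.14, −0.05 to 0.33, and 0.22, −0.02 to 0.47) and the middle ones by cytokine genes (0.22, −0.02 to 0.47, and 0.15, −0.05 to 0.35). The ratios of *Mef2a* along these 4 lists lay between 0.11 and 0.55. Their intervals held 0 in class 1, counted from the lowest, by monocyte-like genes and classes 1 and 3 by MHC class II genes. They also held 0 in class 4 by scavenger genes and classes 1 and 4 by cytokine genes. Cytokine classes 1 and 2, counted from the lowest, both held no cytokine RNA, so the split of cells between them is arbitrary. Over all cells the early-response list summed to 7200.0 CPM in YFP− cells and 7852 CPM in YFP+ cells. From the lowest to the highest early-response class the log2 ratio of *Maf* was −0.02 (−0.14 to 0.10), −0.12 (−0.23 to −0.01), −0.21 (−0.32 to −0.09) and −0.29 (−0.41 to −0.18). Along the other lists it lay between −0.30 and 0.00. There its intervals held 0 in class 1 by monocyte-like genes, classes 1 and 2 by MHC class II genes, class 3 by scavenger genes and classes 1 and 3 by cytokine genes.

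Most of the factors were seen in a minority of cells. To set the libraries side by side every cell was thinned to 500 UMIs, which left out no cell. *Maf* was then seen in 50.5% of YFP− (47.4% to 53.6%, Clopper-Pearson) and 46.0% of YFP+ cells (44.5% to 47.6%), *Zeb2* in 30.1% (27.4% to 33.0%) and 29.8% (28.4% to 31.2%), and *Mef2c* in 26.4% (23.8% to 29.2%) and 27.2% (25.9% to 28.6%). *Cebpb* was seen in 15.2% (13.1% to 17.5%) and 19.1% (17.9% to 20.4%), and *Spi1* in 14.7% of either library (12.6% to 17.0% and 13.6% to 15.8%). *Mef2a* was seen in 8.52% (6.90% to 10.4%) and 10.4% (9.46% to 11.4%), *Irf8* in 9.19% (7.50% to 11.1%) and 8.44% (7.60% to 9.34%), and *Runx1* in 6.41% (5.0% to 8.07%) and 5.95% (5.24% to 6.72%). *Cebpb* was the only member of the 8 whose intervals did not overlap between the libraries.

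The levels were set beside those of free RNA, read from barcodes with 10 to 100 UMIs. Free RNA held macrophage RNA itself: the macrophage markers summed in it to 35229 CPM for the YFP− library and 33641 CPM for the YFP+ library, no less than in cells. A gene that macrophages express evenly would thus be near its level in free RNA, so the comparison does not tell background from expression. *Mef2c* stood farthest above it, with a log2 ratio of cells over free RNA of 0.96 (0.77 to 1.14) in the YFP− and 0.97 (0.85 to 1.09) in the YFP+ library. *Zeb2* was above it by 0.41 (0.27 to 0.56) and 0.70 (0.59 to 0.80), *Maf* by 0.43 (0.33 to 0.53) and 0.48 (0.40 to 0.55) and *Cebpb* by 0.31 (0.12 to 0.51) and 0.31 (0.19 to 0.42). *Irf8* (−0.06 and 0.13, with intervals of −0.31 to 0.20 and −0.05 to 0.30) and *Runx1* (0.01 and 0.08, with intervals of −0.30 to 0.33 and −0.13 to 0.29) had intervals that held 0 in both libraries, and *Spi1* did in YFP− cells (0.10, −0.09 to 0.30) but stood above free RNA in YFP+ cells (0.55, 0.41 to 0.70). *Mef2a* had ratios of 0.27 (−0.02 to 0.57) and 0.38 (0.21 to 0.55), the first with an interval that holds 0. A cell made wholly of free RNA would show *Irf8* in 9.37% and 8.09% and *Runx1* in 6.07% and 5.73% of cells. Shares of *Spi1* and *Maf* were lower in barcodes that hold much nerve RNA. These were 98 cells of a cluster with *Sparc* and *Mbp* among its leading genes, with a median of 983 UMIs. Of the thinned cells, 2.04% (0.25% to 7.18%) held *Spi1* and 25.5% (17.2% to 35.3%) held *Maf*. *Irf8* and *Runx1* were each seen in 4.08% (1.12% to 10.1%), an interval that holds their shares over all cells. The intervals of *Mef2a*, *Mef2c* and *Zeb2* did so too. That of *Cebpb* (9.18%, 4.29% to 16.7%) held its share in YFP− cells alone.

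**Figure D2:**
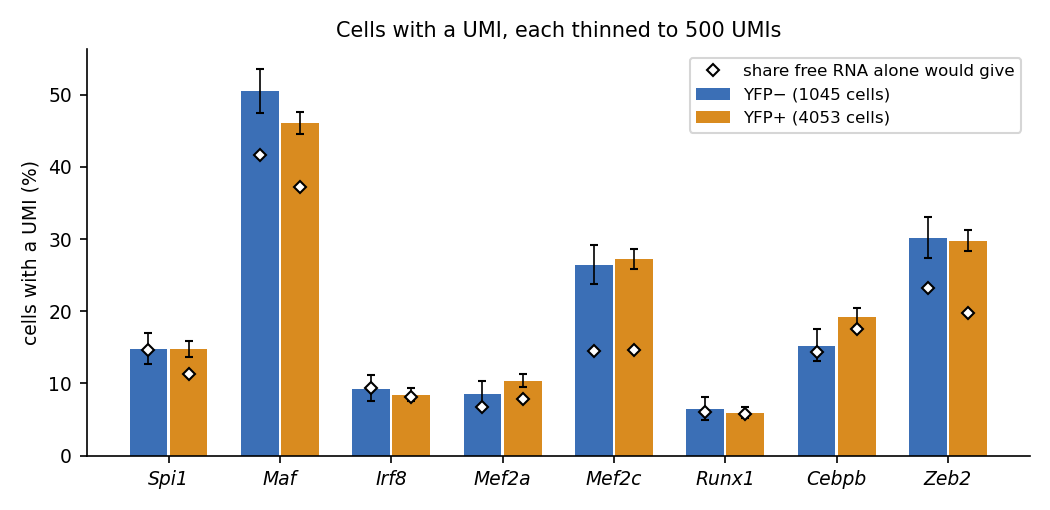
Percent of cells with at least 1 UMI of each factor after every cell was thinned to 500 UMIs, in YFP− (blue) and YFP+ (orange) cells with 95% Clopper-Pearson intervals; diamonds mark the percent for cells made wholly of free RNA, which is itself rich in macrophage RNA. The diamonds for *Irf8* and *Runx1* lie inside the intervals, while *Mef2c* stands at 26.4% and 27.2% against 14.5% and 14.6%.

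Cells with several UMIs of a factor were rare. After thinning, 6.89% of YFP− cells and 5.08% of YFP+ cells had 3 or more UMIs of *Maf*, and 0.478% and 0.814% had 3 or more of *Cebpb*. No cell of either library reached 3 UMIs of *Irf8* or *Runx1*. *Cebpb* was the most unevenly spread of the 8 in YFP+ cells, with a variance over the mean of 1.30 that exceeded 92.5% of 199 genes of like mean, and in YFP− cells it had 1.18, above 88.2% of 297 such genes, while *Maf* had 1.25 there. Against genes of like mean *Runx1* ranked highest of the 8 in YFP− cells, with 1.16, above 92.9% of 801 genes. In YFP+ cells *Runx1* had 1.03, above 67.2% of 925 genes. *Irf8* was spread nearly as counting alone would do, at 1.04 in YFP− and 0.99 in YFP+ cells. A cell held UMIs of 1.61 of the 8 members on average in YFP− and of 1.62 in YFP+ cells, and none of them was seen in 14.3% and 15.1% of cells. Pairs of members were found in the same cell about as often as the product of their shares gives. Of 28 pairs in each library, the interval of the ratio of observed to expected cells lay below 1 for *Irf8* with *Zeb2* in YFP− cells (18 cells against 28.9), and in YFP+ cells that pair held 89 cells against 102, a ratio of 0.87 (0.70 to 1.08). *Maf* and *Mef2c* were seen together in 554 YFP+ cells against 508 and in 147 YFP− cells against 139, with an interval that lay above 1 in YFP+ cells by less than 0.01. The other intervals held 1.

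The factors were next set against 5 lists of genes that differ between macrophages. These were early-response genes, monocyte-like genes (*Crip1*, *Ccr2*, *S100a4*, *Lgals3* and others) and MHC class II genes. Scavenger genes of resident macrophages (*Lyve1*, *Mrc1*, *Cd163* and others) and inflammatory cytokines (*Il1b*, *Cxcl2*, *Ccl3* and others) were the others. *Crip1* made up 64.9% of the UMIs of the monocyte-like list in YFP− and 58.2% in YFP+ cells, so that list mostly measures *Crip1*. Cells of each library were ranked by the UMIs of a list after thinning and cut into 4 classes of equal size. Ties were ordered by the list's share of all UMIs, then by the order of the barcodes. The summed counts of the upper class (261 YFP− and 1013 YFP+ cells) were compared with those of the lower class (262 and 1014 cells), with the list's own UMIs left out of the total. Cytokine RNA was so rare that the cells of the lower 3 classes held none of it after thinning, and with it the median UMIs a cell went from 1942 in the lower to 2585 in the upper class of YFP− cells and from 1315 to 1608 in YFP+ cells. Cytokine classes 1 and 2 held no cytokine UMI before thinning either, so only barcode order parted them. The upper cytokine class also held cells with 0 cytokine UMIs after thinning. A factor counted as changed if it was past 1.5-fold in the same direction in both libraries. By that rule 1 of the 8, *Cebpb*, was higher with the early-response list, where 1.9% of 5519 genes were higher and 2.75% passed in either direction. With the scavenger list 1 of the 8, *Maf*, was higher, where 2.56% of 5517 genes were higher and 4.37% passed in either direction. None of the 8 was called with the monocyte-like list (3.46% of 5524 genes in either direction), the MHC class II list (4.33% of 5525) or the cytokine list (1.92% of 5524). The rank rests on the same cells as the levels, so these are descriptions of how the genes go together in cells and not tests.

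*Cebpb* followed the early-response list. In YFP− cells it was at 290.5, 272, 355 and 633 CPM from the lowest to the highest class, and in YFP+ cells at 368, 380.4, 447 and 711 CPM. The rise lay in the upper part of the range in both libraries, with the lower pair of classes level. The upper over the lower class gave a log2 ratio of 1.12 (0.86 to 1.39) in YFP− and 0.95 (0.81 to 1.09) in YFP+ cells, above 98.1% and 98.7% of the genes tested. *Cebpb* was also higher with the cytokine list, with a log2 ratio of 0.61 (0.33 to 0.88) and 0.50 (0.36 to 0.64), which missed 1.5-fold in YFP+ cells. Among the cells below their library's median of early-response UMIs those ratios were 0.43 and 0.05. With the scavenger list *Cebpb* was lower, by a log2 ratio of −0.38 (−0.65 to −0.11) and −0.30 (−0.45 to −0.15).

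*Runx1* had its higher values in the upper classes of the early-response list, without passing 1.5-fold. It was at 108, 120, 135 and 145 CPM in the classes of YFP− cells and at 104, 117, 124 and 154 CPM in those of YFP+ cells. The log2 ratio was 0.43 (−0.05 to 0.91) in YFP− and 0.56 (0.28 to 0.84) in YFP+ cells, under 1.5-fold in both. In cells with at least 1000 UMIs, thinned to that number, it was past 1.5-fold in both libraries, with 0.61 and 0.76. With the monocyte-like list it was lower, with −0.30 (−0.79 to 0.19) and −0.36 (−0.65 to −0.08).

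*Maf* followed the scavenger list upwards and the MHC class II list downwards. Along the scavenger list it was at 1094.5, 1442, 1542 and 1895 CPM in YFP− cells and at 890.2, 1234, 1465 and 1687 CPM in YFP+ cells. Every step was upwards in both libraries, and the log2 ratio was 0.79 (0.65 to 0.93) and 0.92 (0.83 to 1.01), above 92.3% and 98.6% of the genes tested. Along the MHC class II list *Maf* was at 1758, 1509, 1552 and 1185 CPM in YFP− cells and at 1653, 1512, 1324 and 1027 CPM in YFP+ cells. The log2 ratio was −0.57 (−0.71 to −0.42) and −0.69 (−0.78 to −0.60), so that it was past 1.5-fold in YFP+ cells and short of it in YFP− cells, and 4.78% of the genes tested had a lower ratio in YFP+ cells. With the monocyte-like list *Maf* was lower as well, by −0.18 (−0.32 to −0.04) and −0.39 (−0.48 to −0.31). *Maf* is among the genes that the study lists for a group of these same cells, and several scavenger genes are known c-Maf targets, so its direction along that list is not independent evidence. Median UMIs a cell moved with the scavenger list too, from 2451.5 in the lowest to 1785 in the highest class of YFP− cells and from 1515.5 to 1347 in YFP+ cells, and among cells above their library's median UMI total the ratios were 0.83 and 0.90.

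*Irf8* had its higher values in the upper classes of the MHC class II list. It was at 155, 173, 209.9 and 259.6 CPM across the classes of YFP− cells and at 169, 189.6, 206 and 212 CPM in YFP+ cells. Each step was upwards in both libraries. The log2 ratio was 0.74 (0.35 to 1.13) in YFP− and 0.32 (0.08 to 0.56) in YFP+ cells, with overlapping intervals, and it was past 1.5-fold in YFP− cells and short of it in YFP+ cells. Without the cells of that cluster rich in nerve RNA, with *Sparc* and *Mbp* among its leading genes, the ratios were 0.58 and 0.17, so that neither passed 1.5-fold, and without those of a cluster led by *Retnla* 0.49 and 0.26. *Irf8* was lower with the scavenger list in YFP− cells, by −0.43 (−0.84 to −0.04), and by −0.14 (−0.38 to 0.10) in YFP+ cells.

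*Mef2c* had a smaller pattern that was alike in both libraries. It was lower with the monocyte-like list, by a log2 ratio of −0.29 (−0.51 to −0.08) in YFP− and −0.39 (−0.51 to −0.26) in YFP+ cells, and higher with the scavenger list, by 0.41 (0.18 to 0.64) and 0.22 (0.09 to 0.34). Over the alternatives the monocyte-like ratios of *Mef2c* lay between −0.29 and −0.09 in YFP− and between −0.39 and −0.29 in YFP+ cells. *Mef2c* was also lower in deeper cells, by −0.39 and −0.33. Along the monocyte-like list median UMIs went from 1932.5 to 2396 in YFP− and from 1329.5 to 1588 in YFP+ cells. Along the scavenger list they fell, as given for *Maf*. The part of depth in this pattern was not tested. *Zeb2* had 0.17 (−0.04 to 0.37) and 0.16 (0.04 to 0.28) along the scavenger list. Along the MHC class II list it was at 605, 803, 786 and 758 CPM in YFP− cells, a log2 ratio of 0.32 (0.12 to 0.53). In YFP+ cells it was at 769.7, 797.5, 760.3 and 697.8 CPM, a ratio of −0.14 (−0.26 to −0.02). The lowest class of YFP− cells and the highest of YFP+ cells were the low ones, so that the libraries went in opposite directions. *Mef2a* had no list along which both intervals excluded 0. *Spi1* was the flattest of the 8: its log2 ratios lay between −0.23 and 0.25 over the 5 lists and both libraries, and 1 of those 10 intervals excluded 0, that of the MHC class II list in YFP+ cells (0.25, 0.08 to 0.43).

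**Figure D3:**
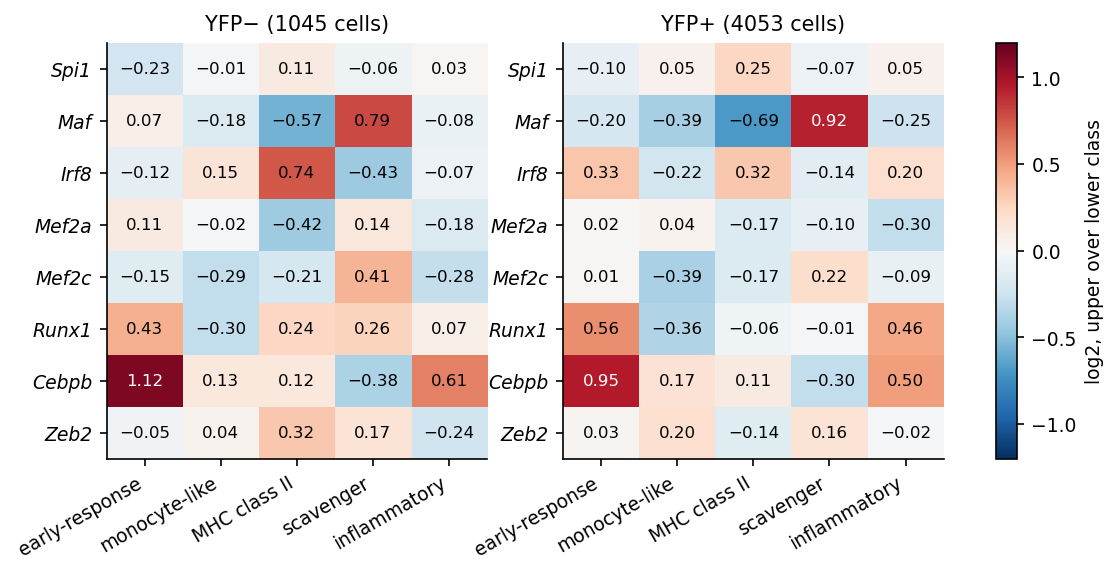
Log2 ratio of the upper over the lower class of cells by 5 gene lists (columns) for each factor (rows) in YFP− and YFP+ cells; red is higher and blue lower in the upper class. *Cebpb* with the early-response list (1.12 and 0.95) and *Maf* with the scavenger list (0.79 and 0.92) are the strongest red fields in both libraries, and *Maf* with the MHC class II list (−0.57 and −0.69) the strongest blue.

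**Figure D4:**
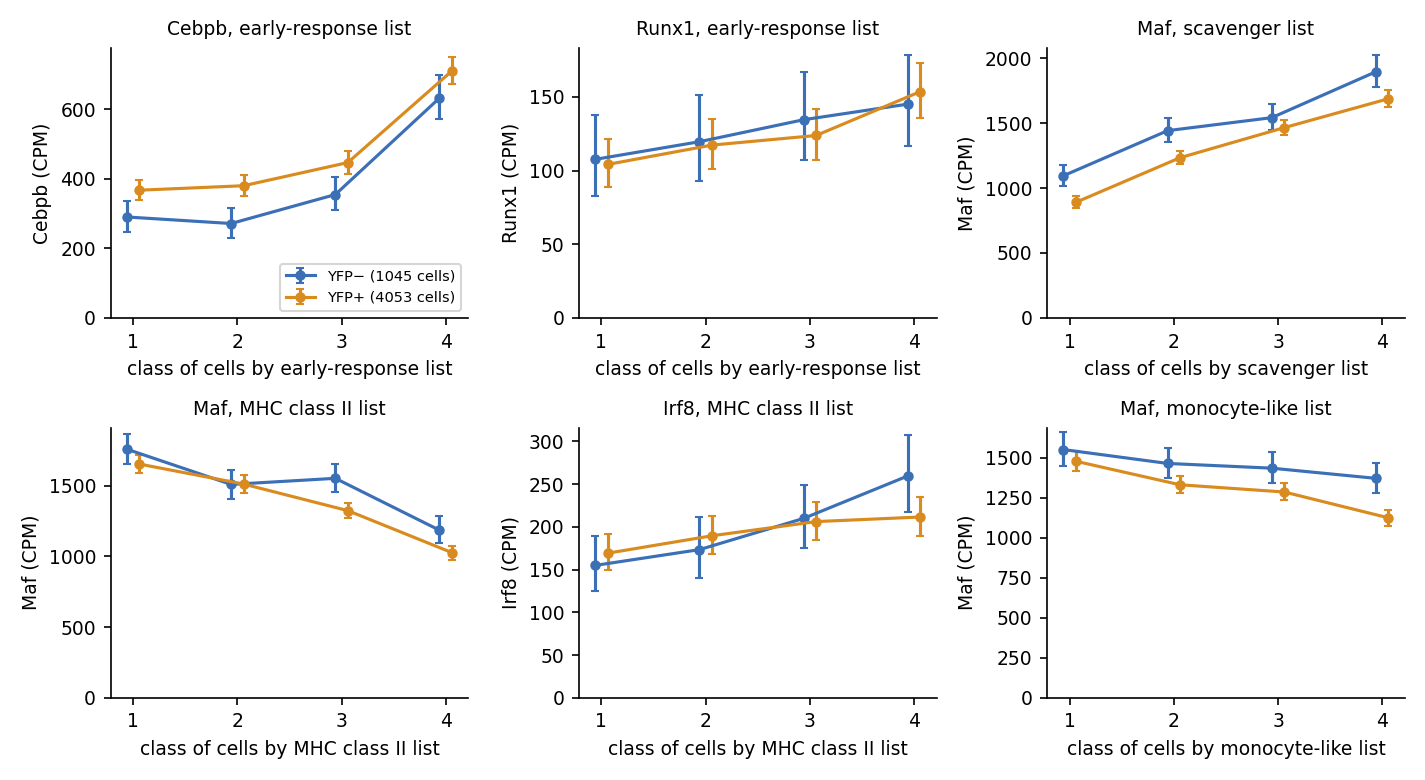
CPM of a factor (vertical axis from 0, 95% Poisson intervals) in each class of cells, from the lowest (1) to the highest (4) by a gene list, in YFP− (blue) and YFP+ (orange) cells. *Cebpb* rises in the last 2 classes, *Maf* rises in steps along the scavenger list and is lower in the upper classes of the MHC class II list, and *Irf8* goes from 155 to 259.6 CPM and from 169 to 212 CPM along the MHC class II list.

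Levels also moved with the depth of a cell. From the class of cells with the fewest UMIs to that with the most, *Maf* had a log2 ratio of −0.57 (−0.72 to −0.41) in YFP− and −0.53 (−0.62 to −0.43) in YFP+ cells, *Zeb2* of −0.53 (−0.76 to −0.31) and −0.35 (−0.48 to −0.22), *Mef2a* of −0.85 (−1.30 to −0.38) and −0.37 (−0.61 to −0.12) and *Mef2c* of −0.39 (−0.64 to −0.13) and −0.33 (−0.47 to −0.18). *Spi1*, *Irf8*, *Runx1* and *Cebpb* had no ratio with intervals off 0 in both libraries. None of the 8 was past 1.5-fold in both libraries, where 10.9% of 5531 genes were. In YFP− cells the ratio of *Mef2a* was above that of 15.3% of the genes tested and the ratio of *Maf* above that of 26.1%. Class 3 of YFP− cells, counted from the fewest UMIs, and class 4 of YFP+ cells had medians of 2688 and 2678 UMIs. There *Mef2a* was at 194 and 193 CPM, *Maf* at 1436 and 1144 CPM and *Cebpb* at 392 and 475 CPM. Class 2 of YFP− and class 3 of YFP+ cells had medians of 1844 and 1832 UMIs. In these *Mef2a* was at 174 and 220 CPM, *Maf* at 1660 and 1303 CPM and *Cebpb* at 374 and 478 CPM.

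Clusters of cells were made without the 8 genes. There were 10 clusters, of which 7 had at least 30 cells in both libraries, and they are called by number and leading genes. *Maf* was highest in cluster 8, a group of 131 cells led by *Retnla*, *Ednrb* and *C4b*, at 2745 CPM in YFP− cells and 2385 CPM in YFP+ cells, and lowest of the 7 in cluster 5, 641 cells led by *S100a4*, *Lgals3* and *S100a6*, at 884.5 and 1003 CPM. Cluster 6, 213 cells led by *Ccl4*, *Ccl3* and *Hspa1a*, was lower still, at 448 CPM in its 195 YFP+ cells. After thinning, 19.7% of the cells of cluster 6 and 67.9% of those of cluster 8 held a UMI of *Maf*. The monocyte-like list summed to 7244 CPM in cluster 5, 7007 CPM in cluster 8 and 7734 CPM in cluster 9. A high sum of that list was thus not particular to cluster 5.

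Among these 7 clusters *Cebpb* was highest in cluster 3, 852 cells led by *Cxcl2*, *Fosb* and *Ccl2*, at 652 CPM in YFP− cells and 675 CPM in YFP+ cells, while in cluster 6, outside the 7, it was at 720.3 CPM in YFP+ cells. *Runx1* was highest in the same cluster 3, at 154 and 156 CPM, and lowest of the 7 in cluster 8, at 55.2 CPM (15.03 to 141, 4 UMIs) and 97.7 CPM (50.5 to 171), intervals that overlap those of cluster 3. *Irf8* was lowest of the 7 in cluster 8 too, at 41.4 CPM (8.53 to 121, 3 UMIs) and 89.5 CPM (44.7 to 160.2), where *Maf* was highest and the MHC class II genes summed to 24138 CPM against 44269 to 71758 CPM in clusters 1 to 7. Clusters 9 and 10, outside the 7, had MHC class II sums of 23126 and 25817 CPM. *Mef2c* was highest in cluster 4 (*mt-Co2*, *mt-Nd4l* and *Mmp9*), at 737 and 773 CPM. *Spi1* was within 321 to 416 CPM over the 7 clusters in YFP− cells and within 293 to 453 CPM in YFP+ cells, highest in cluster 7, 170 cells led by *Gm4951*, *Parp14* and *Ly6e*. *Zeb2* was within 628 to 815 CPM and 676 to 1025 CPM, with its highest value in cluster 8 of YFP+ cells. *Mef2a* was highest in cluster 8, at 248 and 236 CPM, and lowest of the 7 in cluster 7, at 87.0 CPM (39.8 to 165, 9 UMIs) and 189.9 CPM.

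The highest over the lowest of the 7 clusters was past 1.5-fold in both libraries for 5 of the 8 members, *Maf*, *Irf8*, *Mef2c*, *Runx1* and *Cebpb*. It was so for 83.5% of the genes tested and for 62% of those of 100 to 2000 CPM, so a range of that size is common and says nothing particular of these factors. Clusters 6, 9 and 10 had under 30 YFP− cells. Cluster 1, 1124 cells led by *Slc39a1*, *Notch2* and *Actb*, held 72 YFP− cells and 1052 YFP+ cells and had a median of 971.5 UMIs. In cluster 9, 98 cells with *Sparc* and *Mbp* among the leading genes, the macrophage markers summed to 14221 CPM. They summed to 29211 to 35750 CPM in clusters 1 to 7, and to 24542 and 24421 CPM in clusters 8 and 10. The Schwann cell markers summed to 22345 CPM in cluster 9. In its 85 YFP+ cells *Spi1* was at 153 CPM (92.4 to 239.5), *Irf8* at 88.8 CPM (44.3 to 158.9) and *Runx1* at 80.7 CPM (38.7 to 148.5).

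**Figure D5:**
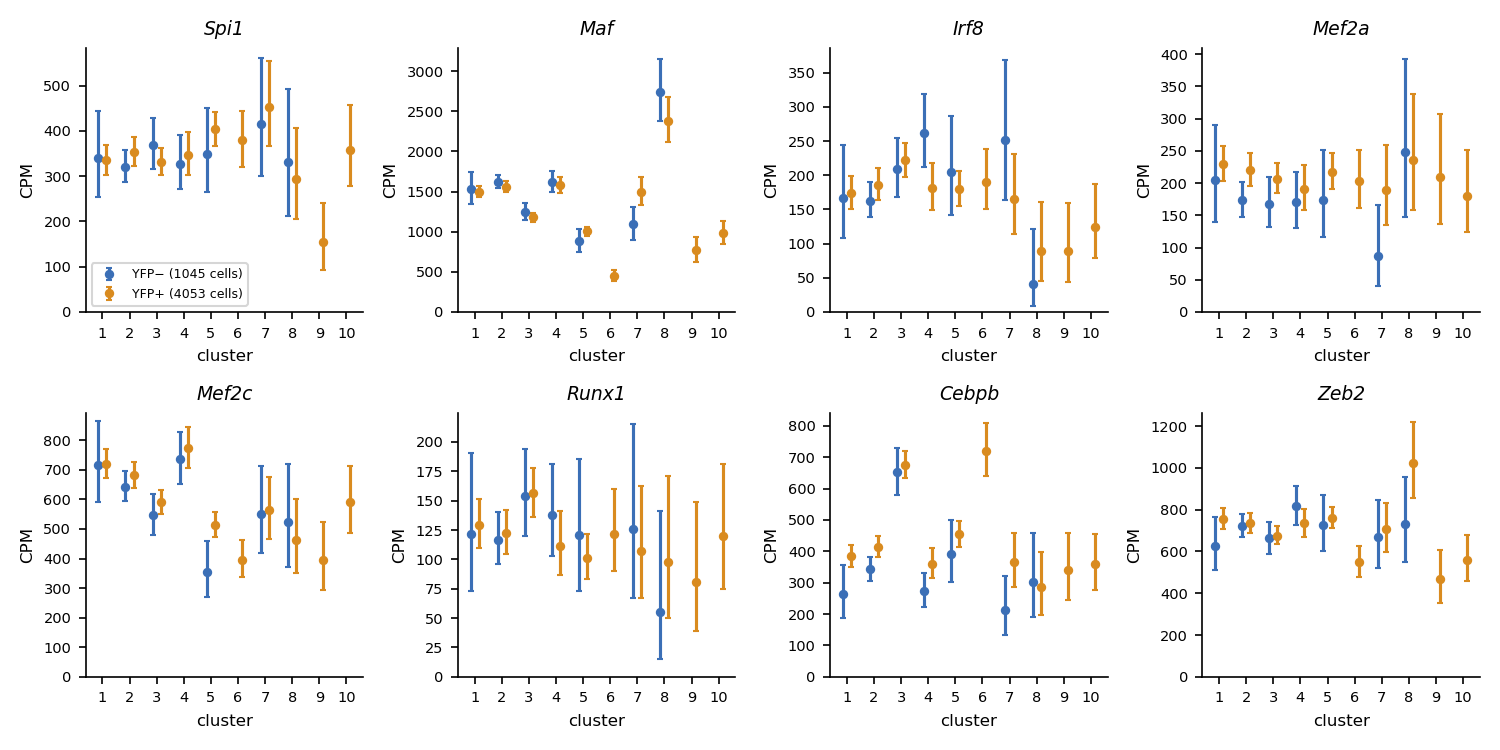
CPM of each factor (vertical axes from 0, 95% Poisson intervals) in the clusters with at least 30 cells of a library, YFP− (blue) and YFP+ (orange). *Maf* peaks in cluster 8 (2745 and 2385 CPM) and is lowest in cluster 6 (448 CPM), *Cebpb* is high in clusters 3 and 6, *Irf8* is low in clusters 8 and 9, and *Spi1* is lowest in cluster 9.

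The genes whose levels went most closely with each factor were found over the 17 cluster and library sums with at least 30 cells, among 2624 genes with a mean of at least 50 CPM. These points share libraries and differ in depth, and the correlations are descriptions. *Maf* went most with *F13a1* (r = 0.95), *Pf4* (0.95) and *Stard8* (0.94), the first pair of which are on the scavenger list. *Cebpb* went with *Klf6* (0.92), *Hspa1a* (0.91) and *Zfp36* (0.86), of which *Klf6* and *Zfp36* are early-response genes and *Hspa1a* encodes a heat shock protein. *Irf8* went with *Rac3* (0.92), *Cd84* (0.90) and *Tifab* (0.90), and *Runx1* with *Cd83* (0.86), *Ppp1r10* (0.85) and *Gm26522* (0.84). *Spi1* went with *Rgs10* (0.88), the lymphoid and myeloid factor *Ikzf1* (0.88) and *Aif1* (0.87), which encodes the macrophage protein Iba1. *Mef2c* went with *Fcrls* (0.81) and *Fnbp1* (0.80), *Zeb2* with *Atp2b1* (0.88), *Adam15* (0.87) and *Ly96* (0.87), and *Mef2a* with *Ube2r2* (0.91), *Uqcrh* (0.87) and *Ywhaz* (0.86). Among the members themselves, *Irf8* and *Runx1* were the closest pair across these sums (0.89), followed by *Maf* and *Zeb2* (0.70). *Irf8* and *Mef2a* (−0.54) and *Maf* and *Cebpb* (−0.50) went in opposite directions. Cluster 8 of YFP− cells held 3 UMIs of *Irf8* and 4 of *Runx1*, and cluster 9 of YFP+ cells 11 and 10. The weight of such sparse points in r was not tested. In thinned cells *Irf8* and *Runx1* were seen together in 6 YFP− cells against 6.16 expected and 19 YFP+ cells against 20.3. *Maf* and *Zeb2* were seen together in 159 against 159 and 560 against 555, so neither pair stood out within cells.

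Relatives and targets of the 8 factors were compared between the libraries in the same way. Of 25 listed relatives 11 had a mean of at least 20 CPM, and 0 of them were past 1.5-fold in either direction, against 7.3% of all genes tested. *Cebpa*, the myeloid relative of *Cebpb*, was at 130.3 CPM in YFP− cells and 108 CPM in YFP+ cells, a log2 ratio of −0.27 (−0.46 to −0.08) and so opposite in sign to that of *Cebpb*. *Irf1* was at 32.3 and 23.9 CPM, *Irf5* at 139 and 138 CPM, *Irf2* at 182 and 207 CPM, and *Cbfb*, the partner of the RUNX proteins, at 56.7 and 61.2 CPM. *Mafg* was at 90.6 and 77.1 CPM, *Irf3* at 54.6 and 47.7 CPM, *Irf9* at 38.0 and 37.1 CPM, *Cebpd* at 99.3 and 91.0 CPM and *Cebpg* at 100.1 and 107 CPM. Of 40 other macrophage factors 22 were measured, and 1 was past 1.5-fold: *Nfia*, at 19.9 CPM in YFP− cells and 40.6 CPM in YFP+ cells, with an interval of the log2 ratio of 0.57 to 1.45. Of 24 known targets of the members 20 were measured and 0 were past 1.5-fold. These counts are near the 7.3% of all genes and show nothing particular to the lists. Among them *Csf1r*, the PU.1 target that encodes the receptor for CSF1 and IL-34, was at 992 and 873 CPM, and *Stab1* at 770.5 and 556 CPM, a log2 ratio of −0.47 (−0.55 to −0.39).

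Some relatives, other factors and targets were past 1.5-fold along the lists in both libraries. With the early-response list 1 of 11 relatives and 1 of 22 other factors were higher, as were 1.9% of all genes tested. With the cytokine list 1 of 22 other factors passed, against 1.92% of genes in either direction. Of 20 targets, 2 were higher and 1 lower with the MHC class II list (4.33% of genes), and 1 was lower with the monocyte-like list (3.46%). *Irf1* was higher with the early-response list, by a log2 ratio of 1.05 (0.12 to 2.03) in YFP− and 1.21 (0.55 to 1.89) in YFP+ cells, and so was the NF-κB subunit *Rel*, by 1.12 (0.33 to 1.95) and 1.07 (0.68 to 1.48). *Rel* was higher with the cytokine list too, by 1.01 (0.19 to 1.89) and 0.93 (0.54 to 1.33). Of the targets, *Ctss*, a protease that prepares MHC class II, was higher with the MHC class II list, from 820.3 to 1326 CPM and from 871 to 1479 CPM. *Csf2ra*, a receptor chain for GM-CSF, went from 229.95 to 382 CPM and from 228 to 385 CPM. *Folr2* was lower with that list, from 494 to 317 CPM and from 388 to 238 CPM, and *Stab1* was lower with the monocyte-like list, from 1021 to 587 CPM and from 665 to 421 CPM. *Stab1* was also past 1.5-fold lower in the deepest against the shallowest cells of both libraries, where 10.9% of genes passed in either direction. The part of depth in its fall with the monocyte-like list was not tested.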

How the data were processed

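CD64+ CD45int macrophages of pooled sciatic nerves were captured with 10x Genomics v2 chemistry, as 1 library of YFP− and 1 of YFP+ cells. The matrices that the authors deposited hold whole-number counts of UMIs, not normalized, made with Cell Ranger 3.0.2 on GRCm38 and followed by Seurat 2.2.0 per the submitters' processing notes. The annotation and strand setting are not given in the sources used here. The study's filter on mapped reads could not be applied to UMI counts. Barcodes with at least 500 UMIs and 200 genes were kept (1045 YFP− and 4053 YFP+). No doublet caller was run, and the cells above the 98th percentile of UMIs were left out in an alternative.

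UMIs were summed by library, cell class or cluster. CPM have exact Poisson intervals, log2 ratios (pseudocount 1 CPM) exact binomial intervals conditional on the summed counts, and shares Clopper-Pearson intervals. With 1 library per group there is no replicate, no test was run and no p-value is given; a gene was called past 1.5-fold, among genes with a mean of at least 20 CPM. At 3 counts the floor of a library was 1.24 CPM for YFP− and 0.445 CPM for YFP+. Clusters were made by Leiden (resolution 0.8, 2000 variable genes without the 8 factors, 20 components, 20 neighbours). Named were the 8 factors, listed genes past 1.5-fold, relatives with a mean of at least 20 CPM, the 3 most similar genes per factor by Pearson correlation of log2(CPM + 10), and the 3 leading genes of a cluster, with *Csf1r* and *Stab1* as targets chosen after their values were seen; some genes that this rule names are not reported here. Mouse promoters came from RefSeq, with entries for 6 of the 8 factors, and gene positions from GENCODE M21, which held 99.9% of the gene IDs. The calculations were tested on simulated counts. The members and lists were chosen with earlier results of these data known. Python 3.11.15, numpy 2.4.6, scipy 1.17.1, pandas 2.3.3, scanpy 1.11.5 and igraph 0.11.9 were used.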

Additional observations from a re-analysis of the deposited data

Results flagged for a closer look

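*Zeb2* went in opposite directions along the MHC class II list in the libraries. The log2 ratio of the upper over the lower class of cells was 0.32 (0.12 to 0.53) in YFP− cells and −0.14 (−0.26 to −0.02) in YFP+ cells, and both counting intervals exclude 0. The difference itself was not tested, since each group is 1 library. Among cells below their library's median of early-response UMIs the ratio of YFP− cells was 0.11, and over all alternatives it lay between 0.11 and 0.32 in YFP− cells and between −0.17 and −0.11 in YFP+ cells. Reads of *Zeb2os* on the other strand cannot be told apart from *Zeb2* if strand was not used.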

How the results depend on the processing

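The alternatives gave 880 values, of which 814 stayed the same by the rule for their kind, 66 moved and 0 changed sign while called. Alternatives that changed only the minimum mean CPM of tested genes could not move a factor's ratio between the libraries. The tally therefore overstates stability. Log2 ratios were judged against their counting intervals, and counts, percents called and cluster folds by a factor of 1.5. Shares of cells were judged against the interval at 500 UMIs, although shares rise with depth. *Spi1* in YFP− cells went from 14.7% to 28.3% at 1000 UMIs and 47.9% without thinning. No factor passed 1.5-fold between the libraries under any of the alternatives run, none of which matched the libraries in depth. *Cebpb* kept a log2 ratio of 0.29 to 0.35, *Mef2a* of 0.27 to 0.34 and *Maf* of −0.19 to −0.15, while *Mef2c* (−0.01 to 0.03) and *Zeb2* (−0.02 to 0.04) had values on both sides of 0. With every cell weighted equally, 3 listed genes (*Rel*, *Nfia* and *Stab1*) in place of 1 passed 1.5-fold between the libraries. With 1000 UMIs a cell, 2 factors (*Runx1* and *Cebpb*) in place of 1 were called along the early-response list. The shares of all genes that passed with equal weights and with 1000 UMIs a cell are not given here. These counts thus show nothing particular to the genes named. With clusters at a resolution of 0.4, 3 factors (*Maf*, *Irf8* and *Cebpb*) in place of 5 passed 1.5-fold in both libraries. So did 82% of all genes tested, against 83.5% with the main clusters. The cause of these moves was not tested. *Maf* along the scavenger list kept 0.61 to 0.90 in YFP− cells and 0.76 to 0.97 in YFP+ cells, and *Cebpb* along the early-response list 0.99 to 1.32 and 0.85 to 1.09. Leaving out the cells of cluster 9 (*Sparc* and *Mbp*) or cluster 8 (*Retnla*), and keeping only the cells above the median UMI total, were chosen after seeing the data. No paired analysis was possible because each group is 1 library, and for the same reason no replicate could be left out. Depth limits the rarer factors most: *Runx1*, *Mef2a* and *Irf8* had 305, 408 and 458 UMIs in YFP− cells.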

Other observations

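Cells with 3 or more UMIs of 12 cell-cycle genes after thinning were few. In the 87 such YFP+ cells *Maf* was at 986 CPM against 1319 CPM in cells with none, a log2 ratio of −0.42 (−0.62 to −0.22), and *Irf8* at 122 against 190.1 CPM, a ratio of −0.63 (−1.25 to −0.08). In the 13 such YFP− cells *Maf* was at 852 CPM against 1486 CPM, a ratio of −0.80 (−1.27 to −0.37), and *Irf8* had 0.10 (−0.96 to 1.0). Many genes fell more: 22.5% of the genes tested had a lower ratio than *Maf* in YFP+ cells and 28.5% in YFP− cells. For *Irf8* in YFP+ cells the share was 15.1%. *Mef2a* had −1.56 (−3.76 to −0.02) in YFP− cells, from 3 UMIs in the cycling cells, and −0.28 (−0.79 to 0.19) in YFP+ cells. *Spi1*, *Mef2c*, *Runx1*, *Cebpb* and *Zeb2* had intervals that held 0 in both libraries. These cells were deeper, with a median of 2078 UMIs against 1481 in YFP+ cells and 3995 against 2118 in YFP− cells. *Maf* was also lower in deeper cells as a whole, by a log2 ratio of −0.53 in YFP+ and −0.57 in YFP− cells between the classes with the most and the fewest UMIs, and the part of depth in the cell-cycle ratios was not tested.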
